A study of Drosophila melanogaster with 12 samples.

Results

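EnRep, taken from its name as a repressor fusion of the Sox factor Dichaete, was compared with the form labelled UAS Dichaete WT in whole Drosophila melanogaster embryos, over 8 of the 12 two-colour arrays of the series. These are the 4 arrays labelled UAS EnRep and the 4 arrays labelled UAS Dichaete WT, and the measure is the difference of their log2 ratios over GFP. In all embryos the simGal4 driver, which is active in cells of the ventral midline, was brought in by the mothers, and the fathers carried the UAS transgene. The 3 kinds of embryo on these arrays expressed UAS EnRep, UAS Dichaete WT or, in the second channel of every array, UAS GFP. Embryos were at stages 8 to 9, collected at 3.5 to 4.5 h at 25 °C, and each array held 1 biological replicate of its construct. The 4 remaining arrays carried the construct labelled HMG-minus and entered only the estimates of the spread and of the dye effect. The labels give EnRep by name alone, and the design text applies the term dominant negative to the constructs without naming one.

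Dichaete is a SoxB protein: it bends DNA through its HMG domain and, with partner proteins such as the POU factor Ventral veins lacking, regulates genes of the early nervous system and the midline, among them slit. The midline of the embryonic nerve cord arises from cells that express single-minded, and gives rise to midline glia and a small set of neurons. A fusion to the repression domain of Engrailed recruits co-repressors, so such a protein lowers genes whose regulatory regions the DNA-binding part occupies. RNA came from whole embryos, of which midline cells are a small share, and a lower value in such RNA cannot tell fewer cells of a type from less RNA per cell.

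On replicates 1 and 2 of both constructs the construct RNA carried Cy3, and on replicates 3 and 4 it carried Cy5, so each dye orientation holds 2 arrays of each construct. On the 8 arrays the median spot read between 247 and 433 scanner units in Cy3, over a median local background between 80 and 117. In Cy5 it read between 280 and 421, over a background between 112 and 153. Precision is limited by having 4 arrays per construct: the median standard error of the difference was 0.14 log2 and the median half-width of its 95% interval was 0.30 log2. Of the 14485 probes, 98.8% differed by less than 0.5 log2 between the constructs, and 12 probes differed by 1 log2 or more.

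Arrays EnRep 4, Dichaete WT 1 and Dichaete WT 2 stood apart from the other 5. Their median log2 ratio over GFP of 16 probes for muscle genes of later stages was 0.84 on EnRep array 4, against 0.70 and 0.87 on Dichaete WT arrays 1 and 2. The other EnRep arrays lay at -0.40, -0.31 and -0.29, and Dichaete WT arrays 3 and 4 at -0.48 and -0.44. In the construct channel the same probes had a median log2 intensity of 8.02, 8.18, 7.73 and 8.88 on EnRep arrays 1 to 4, and of 9.06, 9.02, 8.00 and 7.71 on Dichaete WT arrays 1 to 4. The GFP channel of these 8 arrays spanned only 8.18 to 8.48. The 3 arrays are 1 of EnRep with the construct in Cy5 and 2 of Dichaete WT with the construct in Cy3, so the results are also given without them or by dye orientation where that changes a value or a call. Without the 3 arrays, Dichaete WT keeps only arrays 3 and 4, both with the construct in Cy5, and EnRep keeps arrays 1 to 3. The dye orientations are then not balanced, and the dye term shared with the HMG-minus arrays enters the difference.

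At an adjusted p below 0.05, 3 probes differed between EnRep and Dichaete WT, 0.0207% of the 14485 tested. In EnRep embryos 2 of them were higher (0.0138%) and 1 was lower (0.0069%) (limma, Benjamini-Hochberg adjustment). The higher probes belong to ppk20, a pickpocket gene coding for a subunit of the DEG/ENaC family of sodium channels, and to RFeSP, the Rieske iron-sulfur protein of respiratory complex III. The lower probe carries no gene symbol in the platform annotation and is given by its reporter number, 1000039807. Against GFP, EnRep gave 62 higher and 47 lower probes (0.753% of those tested), and Dichaete WT gave 55 higher and 70 lower probes (0.863%). At an unadjusted p below 0.05, 646 probes passed between the constructs, 4.46% of those tested, where a share of 0.05 would pass if none differed.

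ppk20 had log2 ratios over GFP of 2.79, 2.86, 1.90 and 1.77 on the EnRep arrays, against 0.12, 0.32, 0.022 and 0.24 on the Dichaete WT arrays. Every EnRep array lay far above every Dichaete WT array, and the 2 EnRep arrays with the construct in Cy3 were the highest. The difference was 2.15 ± 0.18 log2 (SE), a 4.45-fold higher ratio in EnRep embryos with a 95% interval of 1.77 to 2.54 log2 (limma, adjusted p = 0.000398). In scanner units the spot read 1747, 1629, 716 and 834 in the EnRep channel, against 204, 307, 216 and 371 in the Dichaete WT channel. The GFP channels of the same arrays read 254, 258, 168 and 244 beside EnRep and 281, 240, 173 and 246 beside Dichaete WT. The GFP readings of the array sets overlap, and the construct readings do not. The local background of the spot was 114 to 153 in the EnRep channel and 90 to 136 in the Dichaete WT channel. Within a dye orientation the difference was 2.61 log2 with the constructs in Cy3 and 1.70 log2 with the constructs in Cy5. It was 2.06 log2 without the 3 arrays that stood apart (adjusted p = 0.00132), an alternative chosen after seeing the data. With a trended and robust variance the call was missed narrowly (adjusted p = 0.0509).

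ppk20 lies among other pickpocket genes. Its neighbour on one side in the RefSeq gene order, ppk21, differed by 0.10 ± 0.13 log2 (SE), and its neighbour on the other, ppk30, by 0.24 ± 0.26 log2 (SE). ppk19, 3 genes away on the same side as ppk30, differed by 0.027 ± 0.16 log2 (SE), and the odorant-binding protein gene Obp99a, which lies between ppk30 and ppk19, by -0.93 ± 0.35 log2 (SE). None of these neighbours passed the test (adjusted p = 0.997 for ppk21, ppk30 and Obp99a and 0.999 for ppk19). Of the 25 measured pickpocket genes, ppk20 was the only one called. Of the 24 others, 19 had a difference above 0 (79.2%), against 51.2% of all named genes. These genes were measured on the same arrays and are not replicates. Without ppk20 the median difference of the family was 0.094 log2 over 24 genes, against 0.0045 log2 over all 11980 named genes. The largest of those 24 differences was that of ppk3, at 0.32 ± 0.16 log2 (SE, adjusted p = 0.997), a dim probe with an accepted construct spot on 2 of 4 EnRep arrays and 2 of 4 Dichaete WT arrays.

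RFeSP had log2 ratios over GFP of 2.11, 1.54, 1.60 and 1.53 on the EnRep arrays, against -0.35, -0.18, 0.098 and -0.47 on the Dichaete WT arrays. Again all 4 EnRep arrays lay above all 4 Dichaete WT arrays, with EnRep array 1 the highest. The difference was 1.92 ± 0.17 log2 (SE, limma, adjusted p = 0.000429). The spot is dim: it read 506, 507, 474 and 396 scanner units in the EnRep channel, against 130, 186, 169 and 161 in the Dichaete WT channel. The spot finder accepted it in the construct channel on 4 of 4 EnRep arrays and on 2 of 4 Dichaete WT arrays, where its readings lie near the local background of 82 to 140. The GFP channels read 138, 185, 131 and 124 beside EnRep and 222, 199, 120 and 134 beside Dichaete WT, which overlap. The size of the difference moved with the background correction: it was 1.53 log2 without one (adjusted p = 0.000113) and 2.56 log2 with an offset of 10 in place of 50 (adjusted p = 0.00457), so the size is uncertain. The difference was 2.09 log2 with the constructs in Cy3, 1.75 log2 with the constructs in Cy5 and 1.99 log2 without the 3 arrays that stood apart (adjusted p = 0.00502).

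**Figure D1:**
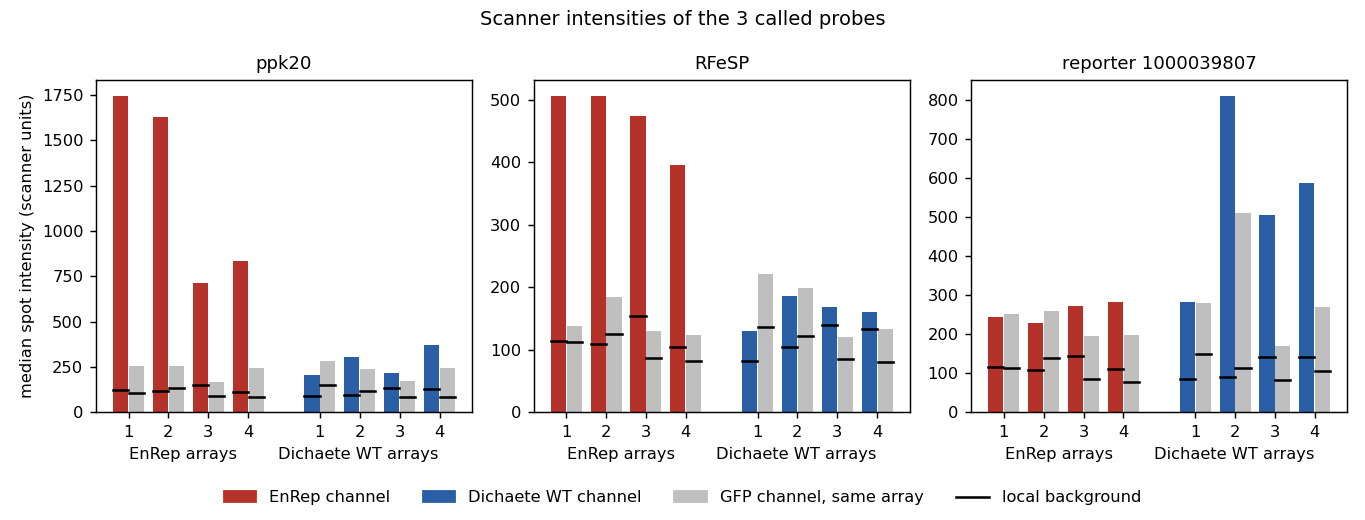
Median spot intensity in scanner units (vertical axis, linear from 0) of the 3 probes called between the constructs, by array number within EnRep and Dichaete WT. Coloured bars are the construct channel, grey bars the GFP channel of the same array and black lines the local background; for ppk20 and RFeSP the EnRep bars of 716 to 1747 and 396 to 507 stand above all Dichaete WT bars.

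RFeSP is 1 member of complex III, which passes electrons from ubiquinol to cytochrome c in the inner mitochondrial membrane. The 5 other measured members of complex III all lay below 0, with a median difference of -0.21 log2, and none was called. UQCR-6.4, one of them, differed by -0.27 ± 0.13 log2 (SE, adjusted p = 0.997). Its log2 ratios were -0.43, -0.39, 0.17 and 0.73 on the EnRep arrays and 0.064, -0.051, 0.64 and 0.52 on the Dichaete WT arrays, which overlap. CG14352, the immediate neighbour of RFeSP on one side in the RefSeq gene order, differed by 0.23 ± 0.13 log2, and cpb, 4 genes away on the other side, by -0.38 ± 0.12 log2 (SE, adjusted p = 0.997 for both).

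Reporter 1000039807 had log2 ratios over GFP of -0.41, -0.38, -0.15 and 0.064 on the EnRep arrays, against 0.75, 0.59, 1.49 and 1.01 on the Dichaete WT arrays. All EnRep arrays lay below all Dichaete WT arrays. In scanner units the spot read 244, 230, 273 and 282 in the EnRep channel, against 284, 812, 505 and 588 in the Dichaete WT channel. The GFP channels read 253, 260, 196 and 199 beside EnRep and 281, 510, 169 and 270 beside Dichaete WT. On Dichaete WT array 1 both channels read alike, so its ratio rests on background correction and normalization. Each channel was accepted on 3 of 4 Dichaete WT arrays. Against GFP the reporter was called in Dichaete WT embryos (0.96 log2, adjusted p = 0.000863) and not in EnRep embryos (-0.22 log2, adjusted p = 0.358). The difference was -1.18 ± 0.14 log2 (SE), with a 95% interval of -1.49 to -0.87 log2 (limma, adjusted p = 0.00958). It was 2.27-fold lower in EnRep embryos. The call was lost without EnRep array 1, 2 or 3, where the adjusted p was 0.0638, 0.063 and 0.0583, and the size then stayed between -1.19 and -1.14 log2. It was also lost with the ratios the authors deposited (-0.999 log2, adjusted p = 0.117), and it held without the 3 arrays that stood apart (-1.46 log2, adjusted p = 0.0126).

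A second reporter without a gene symbol, 1000044200, was singled out after its values were seen because it came closest to the threshold on the higher side. Its log2 ratios over GFP were 1.80, 1.93, 1.70 and 1.47 on the EnRep arrays, against 0.91, 0.86, -0.57 and -0.29 on the Dichaete WT arrays. The groups do not overlap, and on the Dichaete WT side the 2 arrays with the construct in Cy3, which are also 2 of the 3 arrays that stood apart, were the high ones. The difference was 1.50 ± 0.23 log2 (SE, adjusted p = 0.066). Without Dichaete WT array 1 it was 1.66 log2 (adjusted p = 0.0414), without Dichaete WT array 2 it was 1.64 log2 (adjusted p = 0.0469), and without the 3 arrays that stood apart it was 2.22 log2 (adjusted p = 6.26e-05). Each of these fits leaves out 1 or both of the high Dichaete WT arrays, so none gives separate support.

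**Figure D2:**
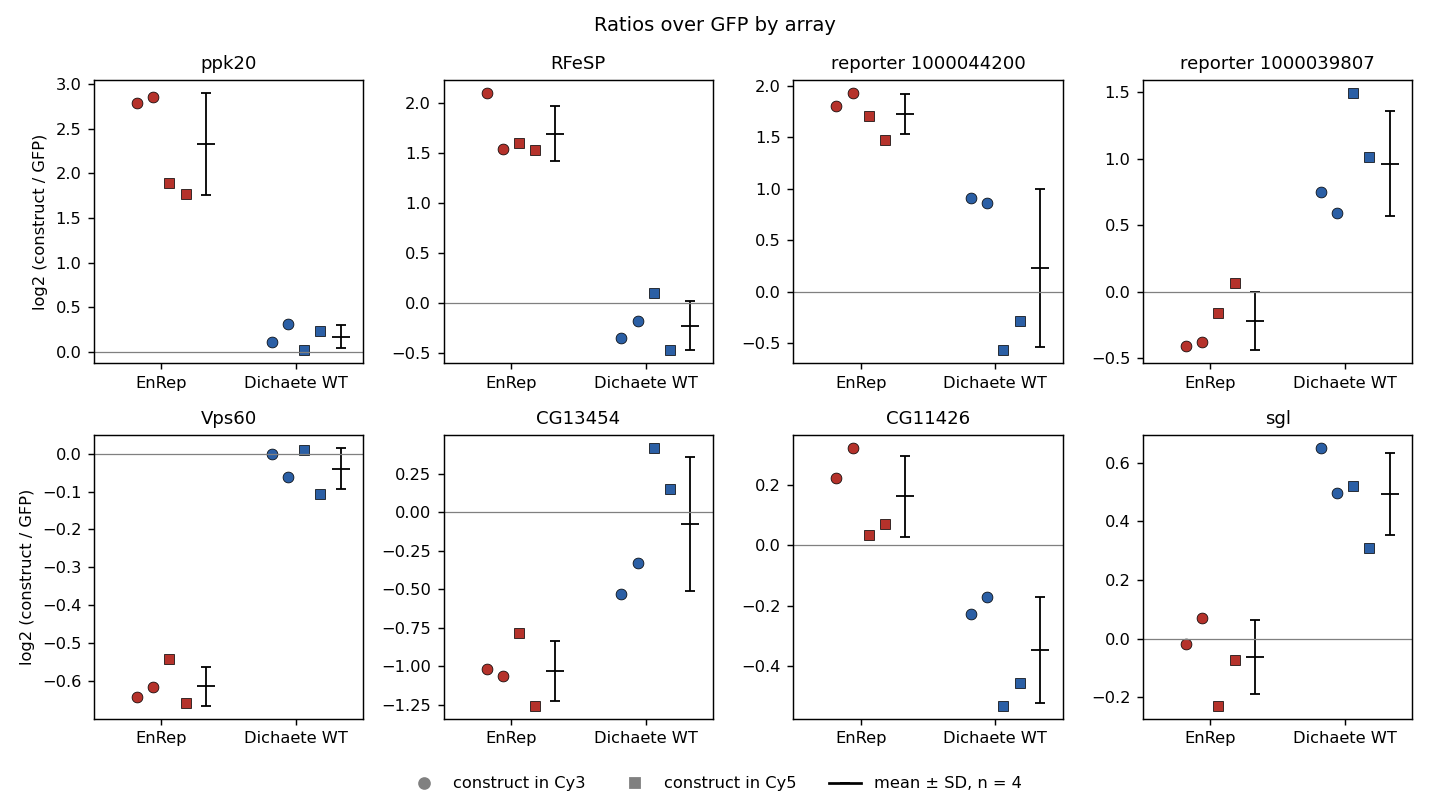
Log2 ratio of construct over GFP (vertical axis, a separate scale in each panel) on each of the 4 EnRep arrays and 4 Dichaete WT arrays for 6 named genes and 2 reporters without a symbol. Circles have the construct in Cy3 and squares in Cy5, bars are the mean ± SD over 4 arrays; in all 8 panels the EnRep and Dichaete WT points do not overlap.

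No other named gene passed the test as higher in EnRep. The 10 named probes with the smallest p on that side differed by 0.41 to 0.65 log2, with adjusted p from 0.165 to 0.997, and on 5 of the 10 the groups do not overlap. Over all probes, EnRep lay wholly above Dichaete WT on 145 (1.0%) and wholly below on 96 (0.663%). The 10 probes were picked by the p of this same difference, so separate groups among them are no added support. CG11426 had the smallest p among the 10, with log2 ratios of 0.22, 0.32, 0.033 and 0.071 on the EnRep arrays and -0.23, -0.17, -0.53 and -0.45 on the Dichaete WT arrays. Its groups do not overlap, although in both the arrays with the construct in Cy3 were the higher ones. The difference was 0.51 ± 0.087 log2 (SE, adjusted p = 0.165).

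mTTF, a mitochondrial transcription termination factor, differed by 0.56 ± 0.15 log2 (SE, adjusted p = 0.892). It read -0.11, -0.34, -0.040 and -0.10 on the EnRep arrays, against -0.98, -0.71, -0.67 and -0.47 on the Dichaete WT arrays, so its ratio was below GFP on all 8 and further below in Dichaete WT embryos. Against GFP it was called in Dichaete WT embryos (-0.71 log2, adjusted p = 0.00951) and not in EnRep embryos (-0.15 log2, adjusted p = 0.553). CG5282 and tbrd-3 also had groups that do not overlap, with differences of 0.53 ± 0.13 and 0.46 ± 0.12 log2 (SE). Fdx1, a ferredoxin that carries electrons to mitochondrial P450 enzymes and to iron-sulfur cluster assembly, had an adjusted p of 0.997. Its spot was mostly not accepted, in GFP on 0 of 4 arrays beside EnRep and 2 of 4 beside Dichaete WT and in the construct channel on 2 of 4 arrays of each, so no size is given. PH4alphaSG2, an alpha subunit of prolyl 4-hydroxylase, differed by 0.65 ± 0.14 log2 (SE), with EnRep array 3 at -0.036 inside the Dichaete WT range that reached 0.17. Its construct spot was accepted on 2 of 4 arrays of each construct and its GFP spot on 2 of 4 beside EnRep, so this size is uncertain. Art2, a protein arginine methyltransferase, differed by 0.52 ± 0.11 log2 (SE), and CG2964, CG4502 and dlt by 0.41, 0.47 and 0.41 log2, each with overlapping groups. The construct spot of Art2 was accepted on 2 of 4 Dichaete WT arrays.

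On the lower side the 12 named probes with the smallest p differed by -0.41 to -0.96 log2, with adjusted p from 0.0917 to 0.477, and on 10 of the 12 the groups do not overlap. These 12 were picked in the same way, so that count adds no support either. Vps60, an ESCRT-III family protein of endosomal sorting, came closest to the threshold. It read -0.64, -0.61, -0.54 and -0.66 on the EnRep arrays, against 0.00024, -0.061, 0.0086 and -0.11 on the Dichaete WT arrays. The EnRep arrays lay close to each other and all below the Dichaete WT arrays, which stayed near GFP. The difference was -0.57 ± 0.091 log2 (SE, adjusted p = 0.0917), and against GFP Vps60 fell in EnRep embryos (-0.61 log2, adjusted p = 0.000651) and was not called in Dichaete WT embryos (-0.040 log2, adjusted p = 0.807).

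CG13454 had the largest difference of the 12, with log2 ratios of -1.02, -1.07, -0.78 and -1.26 on the EnRep arrays and -0.53, -0.33, 0.42 and 0.15 on the Dichaete WT arrays. The EnRep ratios were again the lower set, while the Dichaete WT ratios divided by dye orientation. The difference was -0.96 ± 0.18 log2 (SE, adjusted p = 0.222), and -0.61 log2 with the constructs in Cy3 against -1.30 log2 with the constructs in Cy5. Fitted by channel, EnRep minus Dichaete WT was -0.41 ± 0.30 log2 in the construct channel and 0.55 ± 0.25 log2 in the GFP channel (SE). The construct readings overlap, at 502, 535, 611 and 306 scanner units for EnRep and 383, 489, 719 and 978 for Dichaete WT. The lower ratio therefore rests in part on the GFP readings. The difference in ratios passed in 1 alternative chosen after seeing the data, the fit with the median of the later muscle probes as a covariate (-1.03 log2, adjusted p = 0.00503).

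For some of the 12 genes the Dichaete WT arrays lay above GFP and the EnRep arrays near it. sgl, the UDP-glucose dehydrogenase that heparan sulfate synthesis needs, read -0.019, 0.069, -0.23 and -0.072 on the EnRep arrays, against 0.65, 0.50, 0.52 and 0.31 on the Dichaete WT arrays. tld, the Tolloid protease that cleaves Sog and so frees Dpp, read 0.034, 0.26, -0.24 and -0.15 on the EnRep arrays, against 0.57, 0.54, 0.70 and 0.42 on the Dichaete WT arrays. Tektin-C, a filament protein of cilia and sperm tails, read -0.23, 0.13, 0.29 and 0.35 on the EnRep arrays, against 0.57, 0.42, 0.86 and 0.95 on the Dichaete WT arrays. In each of these genes the EnRep arrays scattered around or near 0 and every Dichaete WT array lay higher. Their differences were -0.56 ± 0.11 log2 for sgl, -0.58 ± 0.12 log2 for tld and -0.56 ± 0.11 log2 for Tektin-C (SE), with adjusted p of 0.245, 0.301 and 0.245. All 3 were called against GFP in Dichaete WT embryos, at 0.49, 0.56 and 0.70 log2 (adjusted p = 0.0129, 0.0103 and 0.00102), and none in EnRep embryos. With print-tip loess tld passed between the constructs too (-0.64 log2, adjusted p = 0.019). A call against GFP in 1 construct alone does not by itself show a difference between the constructs. The same holds for mTTF and Vps60 above and for CG13123 and Obp57a below.

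CG13123 fell against GFP in EnRep embryos (-0.65 log2, adjusted p = 0.0022) and was not called in Dichaete WT embryos (-0.14 log2, adjusted p = 0.417), with a difference of -0.51 ± 0.11 log2 (SE, adjusted p = 0.477). Obp57a, an odorant-binding protein gene, was likewise called against GFP in EnRep embryos (-0.48 log2, adjusted p = 0.0312) and not in Dichaete WT embryos (0.19 log2, adjusted p = 0.315), and its difference was -0.67 ± 0.13 log2 (SE, adjusted p = 0.23). It passed with print-tip loess (-0.73 log2, adjusted p = 0.0461). Sema5c, a transmembrane semaphorin, differed by -0.88 ± 0.19 log2 (SE, adjusted p = 0.419), by -0.35 log2 with the constructs in Cy3 and by -1.41 log2 with the constructs in Cy5. It passed in 2 alternatives chosen after seeing the data, with the later muscle median as a covariate (adjusted p = 0.0227) and with a construct by dye term (adjusted p = 0.0214). CG14275, CG4972, CG31710 and CG14556 made up the rest, at -0.70, -0.57, -0.57 and -0.41 log2, of which CG14275 passed with the constructs in Cy3 alone (-0.85 log2, adjusted p = 0.0304). The CG4972 spot was accepted in each channel on 1 of 4 EnRep arrays and 3 of 4 Dichaete WT arrays, so its size is uncertain. The construct spot of CG14556 was accepted on 2 of 4 EnRep arrays.

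Genes that moved most against GFP in 1 or both constructs were then set side by side. Both constructs were measured against the GFP channel of their own arrays, and the labels do not say whether these channels hold separate GFP extracts. HnRNP-K, an RNA-binding protein, fell on both of its probes in both constructs: -1.07 log2 in EnRep embryos and -1.17 log2 in Dichaete WT embryos on one (adjusted p = 0.000223 and 0.000217), and -0.84 and -0.87 log2 on the other (adjusted p = 0.00062 and 0.000567). Its differences of 0.10 ± 0.14 and 0.032 ± 0.12 log2 (SE) did not pass, and their 95% intervals ran from -0.19 to 0.40 and from -0.23 to 0.30 log2. Cyp4p2, a cytochrome P450, fell by 1.07 log2 in EnRep embryos and by 1.32 log2 in Dichaete WT embryos, and its difference of 0.25 log2 had an interval of -0.15 to 0.66. CG14453 fell by 0.91 log2 in EnRep embryos and by 0.95 log2 in Dichaete WT embryos, and its difference of 0.045 log2 had an interval of -0.29 to 0.38. Its construct spot was accepted on 3 of 4 EnRep arrays and 2 of 4 Dichaete WT arrays, so these sizes are uncertain.

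CG12546 had the lowest mean ratio of all probes in Dichaete WT embryos, -2.07 log2. It read -1.83, -1.59, -1.74 and -0.21 on the EnRep arrays, against -1.96, -2.30, -1.97 and -2.06 on the Dichaete WT arrays. EnRep lay above on all 4 arrays, but array 4, which stood apart in the muscle probes too, was far above the other 3. The difference was 0.73 ± 0.34 log2 (SE, adjusted p = 0.997), 0.32 log2 without EnRep array 4 and 0.029 log2 without the 3 arrays that stood apart.

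Fadd, the death-domain adaptor of the Imd immune pathway, rose in both constructs, by 1.20 log2 in EnRep embryos and 0.69 log2 in Dichaete WT embryos (adjusted p = 0.00022 and 0.013). Its log2 ratios were 1.59, 1.41, 1.02 and 0.76 on the EnRep arrays and 0.77, 0.59, 0.46 and 0.94 on the Dichaete WT arrays. The groups overlap through EnRep array 4. The GFP spot was accepted on 2 of 4 arrays beside each construct, so the size of these ratios over GFP is uncertain. The difference was 0.50 ± 0.15 log2 (SE, adjusted p = 0.997), 0.82 log2 with the constructs in Cy3, where it passed (adjusted p = 0.0241), and 0.19 log2 with the constructs in Cy5. Fitted by channel, EnRep minus Dichaete WT was 0.14 ± 0.19 log2 in the construct channel and -0.36 ± 0.17 log2 in the GFP channel (SE).

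Among genes called higher against GFP in Dichaete WT embryos alone, CG11529 read -0.076, 0.17, 0.16 and -0.012 on the EnRep arrays, against 0.41, 1.27, 0.63 and 0.48 on the Dichaete WT arrays. Its groups do not overlap, and the difference was -0.64 ± 0.17 log2 (SE, adjusted p = 0.892). rau, which sustains signalling by Ras downstream of receptor tyrosine kinases, differed by -0.46 ± 0.15 log2, and Hsc70-3, the chaperone BiP of the endoplasmic reticulum, by -0.42 ± 0.18 log2 (SE). For both the groups overlap and the adjusted p was 0.997, so their calls against GFP in 1 construct alone do not show a difference between the constructs. The rau spot was accepted in each channel on 2 of 4 Dichaete WT arrays.

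**Figure D3:**
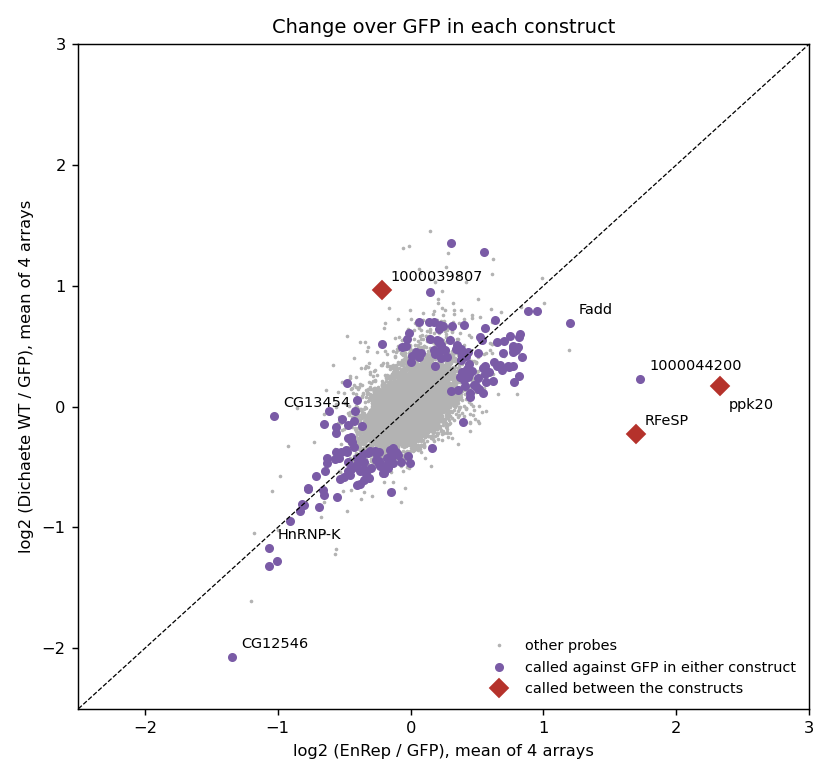
Mean log2 ratio over GFP in EnRep embryos (horizontal axis) and in Dichaete WT embryos (vertical axis), each over 4 arrays, for 14485 probes. The dashed line marks equal ratios. ppk20, RFeSP and reporter 1000044200 lie at 1.69 to 2.33 log2 in EnRep embryos and at -0.23 to 0.23 log2 in Dichaete WT embryos. For reporter 1000044200 the Dichaete WT mean averages arrays from -0.57 to 0.91 log2. Reporter 1000039807 lies above the line, and HnRNP-K lies on it.

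The array did not separate the constructs at Dichaete itself. D, the Dichaete gene, read 0.68, 0.71, 0.075 and 0.011 on the EnRep arrays, against 0.97, 1.09, -0.055 and -0.14 on the Dichaete WT arrays. In both constructs the arrays with the construct in Cy3 were high and those with the construct in Cy5 were near 0, and the groups overlap. Averaged over both orientations D was at 0.37 log2 over GFP in EnRep embryos (adjusted p = 0.0554) and at 0.47 log2 in Dichaete WT embryos, where it was called (adjusted p = 0.0208). The difference was -0.099 ± 0.11 log2 (SE, adjusted p = 0.997), with a 95% interval of -0.34 to 0.14 log2. Whether the D probe lies in the part of the gene that each transgene carries is not given in the sources used here, so this probe does not check the labels.

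Genes around Dichaete and the midline did not differ beyond the error. Over D, SoxN, vvl, sli, comm, ac, l(1)sc, ind and en, 0 of 9 probes were called, and their differences lay between -0.16 and 0.34 log2. SoxN, the other SoxB gene of the early neuroectoderm, had the largest of these, 0.34 ± 0.19 log2 (SE, adjusted p = 0.997), with ratios of -0.34, -0.48, 0.66 and 0.30 on the EnRep arrays and -0.94, -0.28, -0.20 and 0.21 on the Dichaete WT arrays, which overlap. vvl differed by -0.16 ± 0.21 log2, sli, the midline repellent Slit, by 0.11 ± 0.12 log2, and en by -0.15 ± 0.15 log2 (SE). The widest half-interval among the 9 was 0.45 log2, and it is not adjusted for the number of probes tested. Differences larger than that may also go uncalled with 4 arrays per construct. CG13454 at -0.96 log2 and reporter 1000044200 at 1.50 log2 did not pass the adjusted test. The lack of calls among the 9 therefore sets no limit at 0.45 log2.

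The list of the midline primordium and midline glia had 13 measured genes, of which 0 were called. Its median difference was -0.044 log2, and the per-array medians were -0.066, 0.077, -0.040 and -0.23 log2 on the EnRep arrays and -0.048, -0.048, 0.30 and 0.089 log2 on the Dichaete WT arrays. The arrays overlap, and the median was 0.16 log2 with the constructs in Cy3 and -0.31 log2 with the constructs in Cy5. Of the 12 measured genes of midline neurons 9 lay above 0 and 0 were called. DAT, the dopamine transporter, and VGlut, the vesicular glutamate transporter, had the smallest p of these, with differences of 0.31 ± 0.13 and 0.25 ± 0.11 log2 (SE, adjusted p = 0.997 for both). The list of proneural and neuroblast genes had a median of -0.060 log2 over 17 genes with 0 called, and the sign turned with the orientation, at 0.13 log2 with the constructs in Cy3 and -0.29 log2 with the constructs in Cy5.

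Over all 38 gene lists, 35 had no called member, and the 3 with one hold ppk20 or RFeSP. The replication-dependent histones had the highest median difference of the lists, 0.31 log2 over 5 genes, all above 0, against 51.2% of all named genes. Their per-array medians were 0.40, 0.43, 1.29 and 1.01 log2 over GFP on the EnRep arrays and 0.44, 0.14, 0.55 and 0.77 log2 on the Dichaete WT arrays. Both constructs lay above GFP on every array, EnRep arrays 3 and 4 were the highest, and the groups overlap. The largest single difference was that of His2B:CG17949, 0.43 ± 0.17 log2 (SE, adjusted p = 0.997), and His4:CG31611 and His3:CG31613 differed by 0.32 and 0.24 log2. In the construct channel alone His2B:CG17949, His4:CG31611 and His3:CG31613 differed by 0.097, 0.46 and 0.076 log2. In the GFP channel, in the same order, EnRep minus Dichaete WT was -0.33, 0.14 and -0.16 log2. The histone genes lie in repeated, near-identical copies, and a probe cannot be assigned to 1 copy.

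The Notch pathway list, which holds the receptor, its ligands and the Enhancer of split genes it activates, had the lowest median among lists of at least 12 genes, -0.23 log2, with 10 of 12 genes below 0 and 0 called. Its per-array medians were -0.20, -0.062, 0.22 and -0.24 log2 on the EnRep arrays and -0.034, -0.12, 0.55 and 0.33 log2 on the Dichaete WT arrays. Dichaete WT arrays 3 and 4 were the high ones, and the median difference was 0.0054 log2 with the constructs in Cy3, -0.40 log2 with the constructs in Cy5 and -0.084 log2 without EnRep array 4. E(spl)m7-HLH, a basic helix-loop-helix repressor, differed by -0.54 ± 0.20 log2 and E(spl)m2-BFM, a Bearded family member, by -0.47 ± 0.17 log2 (SE, adjusted p = 0.997 for both).

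Lists of mitochondrial and ribosomal genes had no called member apart from RFeSP. Without RFeSP, 54 of 67 measured genes of oxidative phosphorylation had a difference below 0, with a median of -0.12 log2 and 0 called. The per-array medians were -0.051, -0.046, -0.16 and 0.10 log2 on the EnRep arrays and 0.15, 0.038, 0.20 and 0.010 log2 on the Dichaete WT arrays. EnRep array 4 was the exception within its group, and without the 3 arrays that stood apart the median was -0.22 log2. ND-B14, a complex I subunit, had the smallest p of that list apart from RFeSP, at -0.36 ± 0.12 log2 (SE, adjusted p = 0.997). Mitochondrial ribosomal proteins had the same median of -0.12 log2, with 55 of 68 genes below 0 and 0 called. mRpL18 and mRpL16 had the smallest p among them, at -0.46 ± 0.11 and -0.37 ± 0.13 log2 (SE, adjusted p = 0.616 and 0.997). Cytosolic ribosomal proteins had a median of -0.078 log2 with 32 of 39 genes below 0, and the median was 0.0051 log2 with the constructs in Cy3 and -0.14 log2 with the constructs in Cy5.

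**Figure D4:**
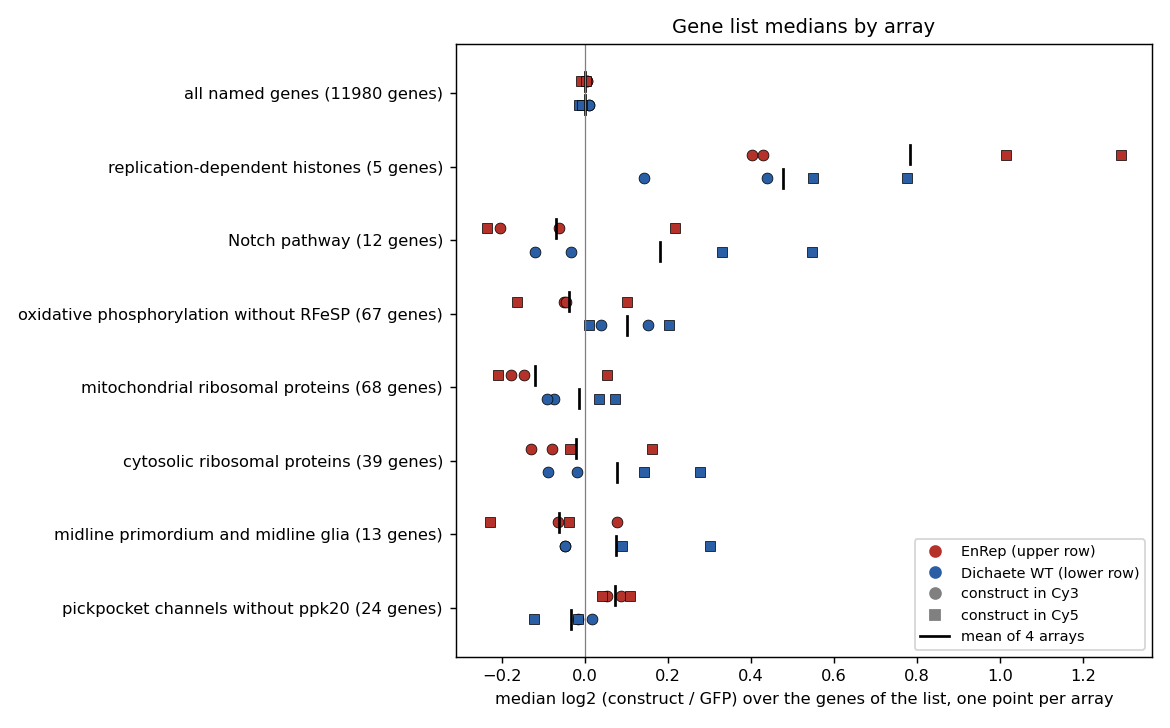
Median log2 ratio of construct over GFP (horizontal axis) over the genes of each list, 1 point per array, EnRep in the upper row and Dichaete WT in the lower row of each pair. Circles have the construct in Cy3, squares in Cy5 and black lines are means of 4 arrays; EnRep and Dichaete WT points overlap in all lists drawn except the pickpocket channels without ppk20, where the EnRep points of 0.040 to 0.11 lie just above the Dichaete WT points of -0.12 to 0.016.

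Averaged over the 2 dye orientations, the median difference was 0.018 log2 over 87 cytochrome P450 genes and 0.012 log2 over 41 proteasome genes, with 0 called in each. Over 115 cuticle protein genes it was -0.0039 log2 with 0 called, made up of -0.28 log2 with the constructs in Cy3 and 0.27 log2 with the constructs in Cy5. Within the cytochrome P450 genes, Cyp12d1-p was the highest of those named, at 0.39 ± 0.13 log2, and Cyp4e2 was at -0.42 ± 0.15 log2 (SE, adjusted p = 0.997 for both).

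The dye orientations gave different counts. With the constructs in Cy3 alone, EnRep replicates 1 and 2 against Dichaete WT replicates 1 and 2, EnRep was higher on 6 probes (0.0414%) and lower on 371 (2.56%). With the constructs in Cy5 alone, replicates 3 and 4, limma called 0 probes, 987 having an unadjusted p below 0.05, and ppk20 and RFeSP had adjusted p of 0.146 and 0.261 there. The 371 lower probes had a median log2 ratio of -0.32, -0.26, -0.45 and 1.07 on the EnRep arrays, against 0.99, 1.13, -0.42 and -0.50 on the Dichaete WT arrays. The high arrays are the 3 that stood apart, and the median difference of these probes was -1.35 log2 with the constructs in Cy3 and 0.78 log2 with the constructs in Cy5. The probes belong to 321 genes, 2.68% of all named genes, among them 8 of 11 later muscle genes and 10 of 13 Jonah genes, which code for digestive serine proteases. The Jonah list was added after the values were seen. Its per-array medians were -0.15, -0.18, -0.61 and 2.56 log2 on the EnRep arrays and 1.95, 1.73, -0.51 and -0.47 log2 on the Dichaete WT arrays. The test of the difference between the 2 orientations called 0 of 14485 probes at an adjusted p below 0.05 (limma), and 1823 had an unadjusted p below 0.05. What sets the 3 arrays apart was not tested.

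**Figure D5:**
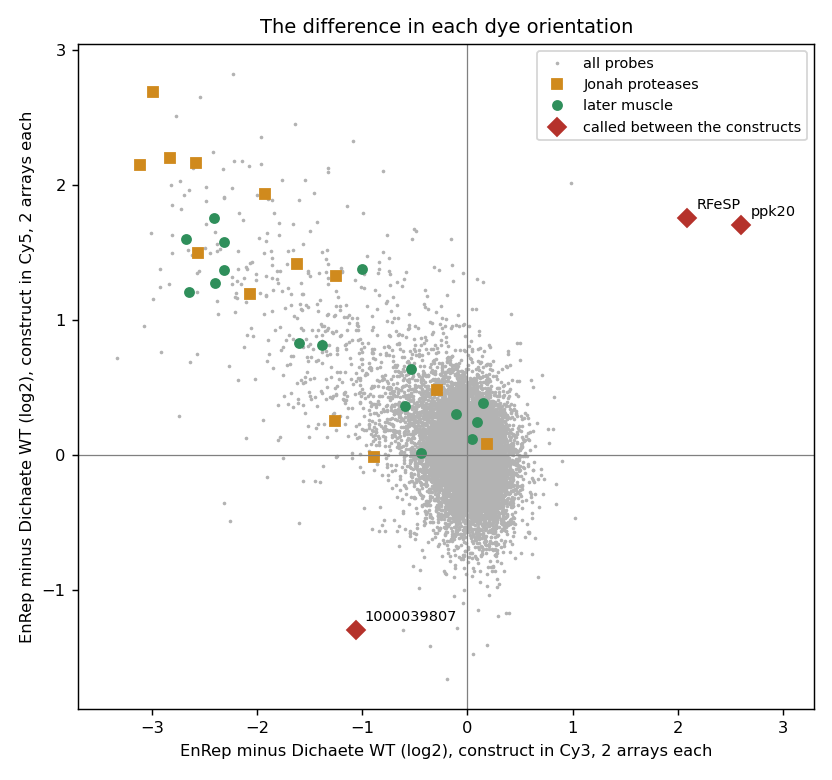
Difference of EnRep minus Dichaete WT in log2 with the constructs in Cy3 (horizontal axis) and in Cy5 (vertical axis), 2 arrays of each construct per axis, for 14485 probes. ppk20 and RFeSP lie at 1.70 log2 or more on both axes and reporter 1000039807 at -1.06 log2 or below on both, while most Jonah protease and later muscle probes lie below 0 on one axis and above 0 on the other.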

How the data were processed

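The scanner files hold, per the file headers, spot intensity as a median over pixels, foreground and local background, for Cy3 and for Cy5 and not normalized. The deposited value table holds log2 ratios of construct over GFP made by the authors. Its columns have medians of -0.034 to 0.019 and follow the labelled dyes. The submitters' processing notes name limma without a version, and the normalization behind these log2 values is not given in the sources used here.

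All fitting used limma 3.58.1 in R 4.3.3. Of 18240 spots, the 14569 in the value table were used. The normexp background correction took all spots and an offset of 50, and loess normalised each array. Ratios were turned to construct over GFP and averaged over the spots of a probe, leaving 14485 probes for 11980 named genes. Of these probes 12574 carry 1 symbol, 96 several and 1815 none. RefSeq symbols (Release 6 plus ISO1 MT) matched 11928. A linear model over all 12 arrays had a mean per construct and a shared dye term, with 8 residual and 4.64 prior degrees of freedom. Tests were two-sided limma tests adjusted over all probes, with a threshold of 0.05. A list's value is the median over its genes, with the probes of a gene averaged.

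Named probes were the called ones, filled to 12 per direction by the smallest p, the 8 with the largest change per direction in each construct over GFP, the 9 measured genes among D and its context, and 2 per list. Not every named probe is described. Members and lists were chosen with earlier results of these data known. The model was tested on simulated data. Same-numbered arrays were not treated as pairs. Their residuals correlated at -0.39, -0.64, 0.0097 and -0.63, and their deviations from the construct means, without a dye term, at 0.20, 0.059, 0.45 and -0.27. The residuals also follow the 3 arrays that stood apart, with 0.67 between EnRep array 4 and Dichaete WT array 2. These values therefore cannot settle whether the samples were paired. A planned count of motifs in promoters was not made, since no sequences were used here. Alternatives changed the background correction, the normalization, the filters, the dye term, the arrays, the variance model and the channel used.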

Additional observations from a re-analysis of the deposited data

Results flagged for a closer look

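Differences between the constructs passed the test of the difference itself for 3 probes: 2.15 log2 for ppk20, 1.92 log2 for RFeSP and -1.18 log2 for reporter 1000039807, each as EnRep over GFP minus Dichaete WT over GFP.

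In 5 of 124 groups of 4 arrays checked, 1 array lay far from the other 3 (Dixon's test at 95%), where chance flags about 1 in 20 groups. Among EnRep arrays these were array 1 for RFeSP, at 2.11 log2, array 1 for Sema5c, at -0.052 log2, and array 4 for CG12546, at -0.21 log2. Among Dichaete WT arrays these were array 1 for CG4972, at 0.56 log2, and array 4 for VGlut, at 0.091 log2. EnRep array 4 is 1 of the 3 arrays that were high in later muscle genes.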

How the results depend on the processing

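ppk20 and RFeSP kept their direction under every alternative run for each, 31 and 29, with values of 1.70 to 2.61 and 1.53 to 2.56 log2. RFeSP was filtered out by 2 alternatives, a filter on dim probes and with only spots accepted in both channels, leaving 1 higher probe each. The count of 3 called probes became 5 with print-tip loess (2 higher, 3 lower), 1 with a trended and robust variance, 377 with the construct in Cy3 alone, 0 with the construct in Cy5 alone (by limma), and, in alternatives chosen after seeing the data, 6 with the later muscle median as a covariate and 5 with a construct by dye term. Leaving out 1 array gave 2 to 4. With the replicate number as a block in place of the dye term the count was 3 and no call changed. ppk20 missed the threshold with a trended and robust variance (2.15 log2) and in Cy5 alone (1.70), RFeSP in Cy5 alone (1.75). Reporter 1000039807 missed it with the deposited ratios (-0.999), without a dye term and over the 8 arrays alone (-1.18 in both), with a trended and robust variance (-1.18), in the construct channel alone (-1.37) and in Cy5 alone (-1.30), and leaving out 1 array it ran from -1.25 to -1.05. Signs of small, uncalled differences turned as follows. In the construct channel alone sli was -0.099 and D 0.31. In Cy3 alone en was 0.0073, sli -0.051, vvl 0.32 and HnRNP-K -0.017 on its second probe, and in Cy5 alone D was 0.14. Without the 3 arrays that stood apart D was 0.059 and CG14453 -0.19. Median centring gave HnRNP-K -0.024 and -0.12, the deposited ratios -0.065 and -0.12, and scaling between arrays -0.042 and accepted spots -0.0081 on the second probe. Array weights gave vvl 0.075, and print-tip loess gave CG14453 -0.0028. Leaving out 1 array in turn, HnRNP-K ran from -0.013 to 0.21 on its first probe and from -0.030 to 0.091 on its second, vvl from -0.34 to 0.068 and CG14453 from -0.053 to 0.12. Of 8 list medians, 5 moved by more than the spread between arrays under some alternative. Leaving out 1 array, the medians ran from -0.32 to -0.084 for the Notch pathway (weakest without EnRep array 4), -0.14 to 0.034 for the midline list and -0.15 to 0.063 for proneural and neuroblast genes, both turning sign without EnRep array 4 or Dichaete WT array 3. They ran from -0.18 to -0.058 for oxidative phosphorylation without RFeSP, -0.14 to -0.074 for mitochondrial and -0.12 to -0.039 for cytosolic ribosomal proteins and 0.20 to 0.37 for the histones, each weakest without EnRep array 3 or Dichaete WT array 3, and from 0.042 to 0.13 for the pickpocket channels without ppk20, lowest without Dichaete WT array 3. The cause of these changes was not tested.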
